A study of Mus musculus with 24 samples.

Results

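Galectins, annexins and S100 proteins are small or mid-sized proteins that act at membranes, and vimentin is the main intermediate filament protein of lymphocytes. Their genes are often read together as a signature of activated and effector T cells. The 10 genes described here are 2 galectins (Lgals1 and Lgals3), 3 annexins (Anxa1, Anxa2 and Anxa5), 4 S100 genes (S100a4, S100a6, S100a10 and S100a11) and vimentin (Vim), out of 55401 genes in the deposited RNA table. They were selected on RNA levels and fold changes of these same libraries, whose results were known when the list was drawn up, so these RNA values are given as a description, without p-values. Chromatin accessibility near them was not used to list them and was tested.

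The cells were mouse CD8 T cells of the strain C57BL/6J, isolated with magnetic beads from spleens and lymph nodes and activated in culture with anti-CD28 and IL-2. All groups shared this activation, and from day 2 to day 3 they differed in what was added to the medium. One group received 20 mM sodium chloride (NaCl), which served as control for the added salt, and one received 20 mM sodium pyruvate. Another received 20 mM sodium lactate, called lactate below. The last received 20 mM sodium lactate together with Oxyrase, an enzyme preparation that removes oxygen from a medium. RNA-seq and ATAC-seq, which counts the insertions of a transposase into open DNA, were each run on 3 libraries per group, so 24 libraries in all. Separate mice or cultures are not named in the labels for the replicate libraries, so p-values measure the spread between these libraries, which may be technical. Oxyrase was given only with lactate and is therefore compared with lactate alone. The 4 comparisons share libraries, and their values are set side by side without a test of likeness.

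Galectins bind beta-galactosides on glycoproteins: galectin-1 (Lgals1) cross-links T cell surface glycans, and galectin-3 (Lgals3) also acts inside the cell and can restrain T cell receptor signalling. Annexins bind acidic phospholipids when calcium is present, and S100 proteins are calcium-binding dimers that dock on partner proteins. The families meet in 1 known complex, a tetramer of annexin A2 (Anxa2) with S100A10 (S100a10). S100A11 pairs with annexin A1 (Anxa1), S100A4 and S100A6 bind cytoskeletal proteins, and annexin A5 (Anxa5) binds exposed phosphatidylserine. Vimentin filaments give a lymphocyte mechanical stiffness.

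RefSeq promoter sequences (build GRCm38.p6, the 250 bases before the annotated start) were held for 8 of the 10 genes, all but Lgals1 and S100a10. The 4 printed here belong to the genes on which the results turn: Lgals3, whose RNA differed most between the groups, Anxa2 and S100a11, whose RNA was higher both with pyruvate and with Oxyrase, and Vim, whose RNA was higher with pyruvate but not with Oxyrase. Each reads 5′ to 3′ on the plus strand, which is the strand of these 4 genes, and capitals mark matches, on either strand, to the motifs described after them.
Lgals3, chr14:47373610-47373859: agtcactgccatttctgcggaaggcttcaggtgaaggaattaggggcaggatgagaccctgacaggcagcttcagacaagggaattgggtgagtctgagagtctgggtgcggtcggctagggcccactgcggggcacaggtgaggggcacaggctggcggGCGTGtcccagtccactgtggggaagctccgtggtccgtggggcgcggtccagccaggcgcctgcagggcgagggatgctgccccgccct
Anxa2, chr9:69453433-69453682: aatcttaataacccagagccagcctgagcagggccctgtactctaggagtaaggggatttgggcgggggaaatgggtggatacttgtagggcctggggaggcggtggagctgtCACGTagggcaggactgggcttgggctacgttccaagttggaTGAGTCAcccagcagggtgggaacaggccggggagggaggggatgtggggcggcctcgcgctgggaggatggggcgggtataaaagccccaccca
S100a11, chr3:93520246-93520495: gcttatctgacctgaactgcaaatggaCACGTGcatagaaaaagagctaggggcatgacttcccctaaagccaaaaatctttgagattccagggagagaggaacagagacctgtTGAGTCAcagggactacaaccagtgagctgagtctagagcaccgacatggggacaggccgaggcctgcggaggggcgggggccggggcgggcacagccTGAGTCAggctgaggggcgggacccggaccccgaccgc
Vim, chr2:13574061-13574310: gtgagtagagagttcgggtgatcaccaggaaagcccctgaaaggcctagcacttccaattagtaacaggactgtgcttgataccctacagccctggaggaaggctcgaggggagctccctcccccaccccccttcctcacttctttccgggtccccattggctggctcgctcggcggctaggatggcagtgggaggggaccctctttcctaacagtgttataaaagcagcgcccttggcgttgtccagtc
3 motifs of stress-responsive factors were searched on both strands. The core of the hypoxia response element (ACGTG or GCGTG) was present in 4 of 8 promoters, those of Lgals3, Anxa2, Anxa5 and S100a11, and in 38.6% of 32851 mouse promoters of the same length. The AP-1 site (TGANTCA) was present in 2 of 8, Anxa2 with 1 match and S100a11 with 2, and in 6.75% of all promoters. The antioxidant response element (TGACNNNGC) was present in 0 of 8 and in 10.2% of all promoters. In S100a11 the palindrome CACGTG holds the ACGTG letters on each strand, so its 2 hypoxia core matches overlap. No match was found in the promoters of Vim, Anxa1, S100a4 and S100a6. These matches describe letters in the window and say nothing about binding.

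RNA libraries held 26.04 to 39.64 M counts and ATAC-seq libraries 25.31 to 37.07 M counts in 75802 peaks. RNA levels are given as CPM (counts scaled to a common library size of 1 M, mega, counts), with no correction for gene length, so levels are compared within a gene and not between genes. A filter on low counts left 14749 genes, and all 10 passed it, Anxa1 at only 3 to 15 counts per library. The CD8 T cell label was checked against 8 markers (among them Cd3e, Cd8a and Trac), whose summed level was 2274 to 2334 CPM with NaCl, 2054 to 2094 with pyruvate, 2203 to 2274 with lactate and 1583 to 1659 with Oxyrase. Of these 8 markers, 6 fell with pyruvate against NaCl and 6 fell with Oxyrase against lactate (6.28% and 23.6% of all tested genes). Galectin-3, vimentin and S100 genes are also abundant in myeloid cells. The 12 myeloid markers together held 1.58 to 1.89 CPM with NaCl, 2.72 to 4.12 with pyruvate, 1.86 to 1.94 with lactate and 4.70 to 6.62 with Oxyrase, and C1qa and C1qc were at 0 in all 12 libraries. Most of that sum was Cd68, a lysosomal protein, which rose 1.14 ± 0.19 on the log2 scale with pyruvate against NaCl and 1.72 ± 0.18 with Oxyrase against lactate (edgeR adjusted p of 0.000629 and 4.41e-07). The other tested myeloid marker, the antibody receptor gene Fcgr3, rose with Oxyrase from 0.0592 ± 0.103 to 0.337 ± 0.00597 CPM (edgeR adjusted p = 0.0271, but 0.0562 to 0.106 without any library of the pair except lactate library 3). Its Oxyrase libraries lay at 0.333 CPM or above, and every other library at 0.312 CPM or below. Fcgr3 thus passed the filter on low counts mainly through the group where it was high. The rise of both tested myeloid markers therefore does not describe the 12 markers, as the others were too low to test. The myeloid gene Lyz2 reached at most 0.086 CPM, where 3 counts make 0.0759 CPM in the deepest and 0.116 CPM in the shallowest library. Other untested markers of the list reached more, Cd14 0.275 CPM with Oxyrase, Csf1r 0.164 CPM with lactate and Itgam 0.127 CPM with pyruvate. Adgre1, Mrc1, C1qb and Marco stayed at 0.109 CPM or below. The 6 dendritic cell markers summed to 12.3 to 15.5, 19.8 to 20.3, 12.1 to 13.1 and 31.4 to 36.7 CPM in the same order of groups, with Cd209a at 0 throughout, and these sums were mostly Zbtb46 and H2-Ab1. All 4 tested dendritic markers rose with Oxyrase against lactate and 3 of the 4 with pyruvate against NaCl (26.1% and 9.40% of all tested genes). These counts lean toward a rise, because Itgax and Xcr1 passed the filter on low counts through groups where they were high. Itgax reached at most 0.304 CPM outside the Oxyrase libraries, and Xcr1 at most 0.231 CPM with NaCl and lactate. Flt3, too low to test, had medians of 0.181, 0.086, 0.0545 and 0.138 CPM with NaCl, pyruvate, lactate and Oxyrase. The pyruvate call of Itgax was lost with DESeq2 and without NaCl library 2 or pyruvate library 2 (edgeR adjusted p of 0.0652 and 0.0854). That of H2-Ab1 was lost without pyruvate library 2 (0.0865 by edgeR). With Oxyrase the transcription factor gene Zbtb46 rose by 1.37 ± 0.08 and the class II gene H2-Ab1 by 1.42 ± 0.20 (edgeR adjusted p of 5.3e-10 and 1.47e-05). The integrin gene Itgax rose from 0.0708 ± 0.041 to 0.769 ± 0.189 CPM and the chemokine receptor gene Xcr1 from 0.0877 ± 0.0761 to 0.333 ± 0.099 CPM (5.54e-05 and 0.0181 by edgeR, the latter 0.0571 to 0.0682 without lactate library 1 or Oxyrase library 2 or 3). These 6 tested markers, and Flt3, Cd14, Csf1r, Itgam, Adgre1, Mrc1, C1qb and Marco, were named after their values were seen. Summed B cell markers stayed between 2.74 and 4.10 CPM and summed stromal markers between 0.271 and 1.48 CPM, with Col3a1 and Dcn at 0. The part of these marker levels in the results below was not tested. In bulk RNA, fewer cells with a transcript and less transcript per cell cannot be told apart.

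Galectin-3 showed the widest range of the 10 genes. Lgals3 (ENSMUSG00000050335; chr14:47373860-47386167, plus strand, GRCm38.p6) stood at 17.0, 13.7 and 13 CPM in NaCl libraries 1 to 3 and at 12.6, 12.3 and 12.9 CPM with lactate. With pyruvate it was at 48.6, 51.2 and 52.2 CPM. With lactate and Oxyrase it was at 147, 155 and 173 CPM, a range that did not touch that of pyruvate, and all NaCl and lactate libraries lay at or below 17.0 CPM. The log2 fold change was 1.79 ± 0.08 (SE) for pyruvate against NaCl, a 3.46-fold difference, and 2.01 ± 0.08 for pyruvate against lactate. Oxyrase added to lactate gave 3.65 ± 0.08, a 12.6-fold difference (95% interval 3.48 to 3.82 on the log2 scale). For lactate against NaCl it was -0.21 ± 0.09, which did not pass the edgeR threshold of 0.05 on the adjusted p over all genes.

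Galectin-1 followed another order. Lgals1 (ENSMUSG00000068220; chr15:78926725-78930465) was lowest with NaCl at 282, 273 and 281 CPM and highest with pyruvate at 457, 445 and 497 CPM. Lactate gave 335, 344 and 332 CPM, all above every NaCl library and below every pyruvate library. Lactate with Oxyrase gave 273, 306 and 303 CPM, below every lactate library and overlapping the NaCl range. The log2 fold changes were 0.74 ± 0.05 for pyruvate against NaCl, 0.27 ± 0.05 for lactate against NaCl, 0.47 ± 0.05 for pyruvate against lactate and -0.19 ± 0.05 for Oxyrase against lactate. The 2 galectins thus differed in sign in the Oxyrase comparison, Lgals3 higher and Lgals1 lower in each of 3 libraries than in any lactate library. Reads of pseudogene copies could be counted with a gene. Lgals1-ps1 was at 0 and Lgals1-ps2 reached at most 2 counts in a library. These low counts cannot show whether reads of the copies were counted with Lgals1.

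**Figure D1:**
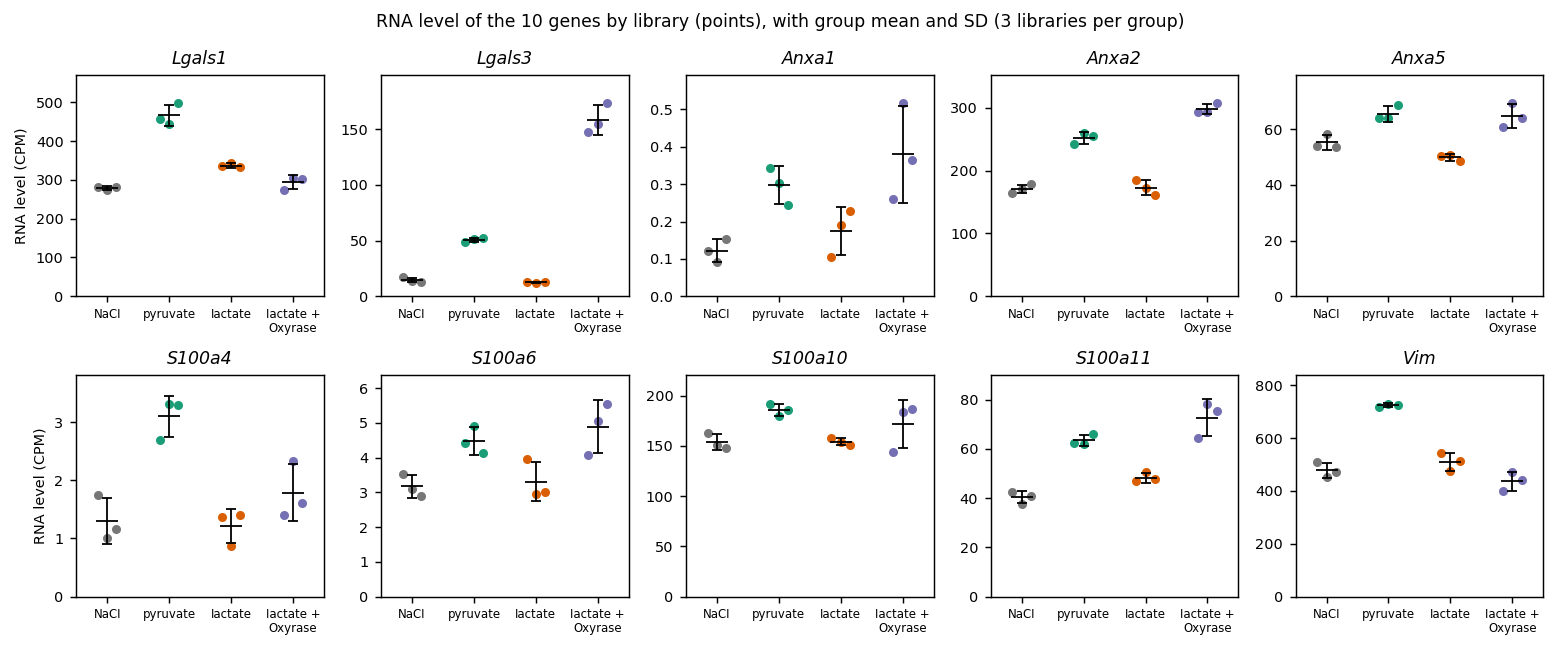
RNA level (CPM, linear axis from 0) of each of the 10 genes by library; points are libraries, black marks the group mean and SD of 3 libraries. Lgals3 spans 12.3 to 173 CPM, Vim and Lgals1 peak with pyruvate, and Anxa2 is highest with lactate and Oxyrase.

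Annexin A2 was higher both with pyruvate and with Oxyrase. Anxa2 (ENSMUSG00000032231; chr9:69453683-69491792, plus strand) was at 165, 170 and 178 CPM with NaCl and at 185, 173 and 161 CPM with lactate, 2 ranges that overlapped. Pyruvate gave 242, 260 and 255 CPM, and lactate with Oxyrase gave 293, 293 and 307 CPM. The log2 fold change was 0.56 ± 0.05 for pyruvate against NaCl, 0.02 ± 0.05 for lactate against NaCl (95% interval -0.08 to 0.12), 0.78 ± 0.05 for Oxyrase against lactate and 0.55 ± 0.05 for pyruvate against lactate.

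Its partner S100a10 (ENSMUSG00000041959; chr3:93555117-93564645) moved less. It was at 163, 151 and 148 CPM with NaCl, 158, 154 and 151 with lactate, and 192, 180 and 186 with pyruvate, the last above every library of both other groups. With lactate and Oxyrase, library 1 stood at 144 CPM, below every lactate library, while libraries 2 and 3 stood at 184 and 187 CPM. The log2 fold change of S100a10 was 0.27 ± 0.07 for pyruvate against NaCl, -0.00 ± 0.07 for lactate against NaCl and 0.27 ± 0.07 for pyruvate against lactate. For Oxyrase against lactate it was 0.16 ± 0.07 and did not pass, whereas without Oxyrase library 1 it was 0.27 and passed. The pyruvate against NaCl value no longer passed without NaCl library 2 (0.26), NaCl library 3 (0.24) or pyruvate library 1 (0.25).

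The other annexins had smaller or less certain differences. Anxa5 (ENSMUSG00000027712; chr3:36448923-36475887, minus strand) was at 53.8, 58.4 and 53.5 CPM with NaCl and at 50.4, 50.6 and 48.4 CPM with lactate. It reached 63.9, 63.8 and 68.6 CPM with pyruvate and 60.9, 69.2 and 63.8 CPM with Oxyrase, both above every NaCl and lactate library. Its log2 fold changes were 0.24, -0.15, 0.38 and 0.39, each ± 0.05, for pyruvate against NaCl, lactate against NaCl, Oxyrase against lactate and pyruvate against lactate. Anxa1 (ENSMUSG00000024659; chr19:20373434-20390671, minus strand), the partner of S100A11 and an anti-inflammatory mediator in myeloid cells, was near the limit of detection. Its group means were 0.122 ± 0.0315 CPM (SD, n = 3) with NaCl, 0.297 ± 0.0511 with pyruvate, 0.175 ± 0.0632 with lactate and 0.380 ± 0.129 with Oxyrase. It passed in none of the 4 comparisons, with a log2 fold change of 1.29 ± 0.49 for pyruvate against NaCl and 1.07 ± 0.44 for Oxyrase against lactate. Without Oxyrase library 1 the latter was 1.27 and passed.

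Among the S100 genes, S100a11 (ENSMUSG00000027907; chr3:93520496-93526288, plus strand) was lowest with NaCl at 42.7, 37.7 and 40.7 CPM. It stood at 46.8, 50.7 and 47.7 CPM with lactate, 62.4, 62.2 and 65.9 CPM with pyruvate and 64.5, 78.4 and 75.5 CPM with Oxyrase. Lactate values lay above all NaCl values and below all pyruvate and Oxyrase values, and the last 2 groups overlapped. The log2 fold changes were 0.65 ± 0.07, 0.26 ± 0.07, 0.59 ± 0.06 and 0.39 ± 0.06 in the order pyruvate against NaCl, lactate against NaCl, Oxyrase against lactate and pyruvate against lactate. The lactate against NaCl difference of S100a11 did not pass without NaCl library 2 (0.22), lactate library 2 (0.23) or lactate library 3 (0.27). The retrocopy S100a11-ps was at 0 counts, which cannot show whether its reads were counted with S100a11.

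S100a4 and S100a6 lie close together on chromosome 3, with S100a5 between them, and were both low in these cells. S100a4 (ENSMUSG00000001020; chr3:90603770-90606045, plus strand), which encodes a binder of non-muscle myosin, was at 1.75, 1.00 and 1.16 CPM with NaCl and 1.37, 0.873 and 1.40 CPM with lactate. Pyruvate gave 2.70, 3.32 and 3.29 CPM, above every other library, and Oxyrase gave 1.41, 2.34 and 1.61 CPM. The log2 fold change was 1.24 ± 0.24 for pyruvate against NaCl and 1.36 ± 0.24 for pyruvate against lactate, while 0.56 ± 0.25 for Oxyrase against lactate did not pass except without Oxyrase library 1 (0.70). S100a6 (ENSMUSG00000001025; chr3:90612894-90614414, plus strand), known as calcyclin, averaged 3.17 ± 0.321 CPM (SD, n = 3) with NaCl, 3.31 ± 0.564 with lactate, 4.48 ± 0.397 with pyruvate and 4.89 ± 0.753 with Oxyrase. Its log2 fold changes, each ± 0.15, were 0.50, 0.04, 0.58 and 0.45 in the same order of comparisons as for S100a11. Against NaCl the pyruvate value of S100a6 passed in the full set but not without NaCl library 2 (0.48), NaCl library 3 (0.44), pyruvate library 1 (0.51) or pyruvate library 2 (0.42). Against lactate it did not pass without lactate library 2 (0.38), lactate library 3 (0.39), pyruvate library 1 (0.47) or pyruvate library 2 (0.38).

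Vimentin shared the direction of galectin-1. Vim (ENSMUSG00000026728; chr2:13574311-13582826, plus strand) was at 718, 730 and 727 CPM with pyruvate, above every other library. It was at 508, 452 and 472 CPM with NaCl, 544, 474 and 513 CPM with lactate and 398, 470 and 443 CPM with Oxyrase. The log2 fold change was 0.60 ± 0.06 for pyruvate against NaCl, 0.10 ± 0.06 for lactate against NaCl, 0.51 ± 0.06 for pyruvate against lactate and -0.22 ± 0.06 for Oxyrase against lactate. The Oxyrase libraries lay below all lactate libraries and overlapped the NaCl range.

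**Figure D2:**
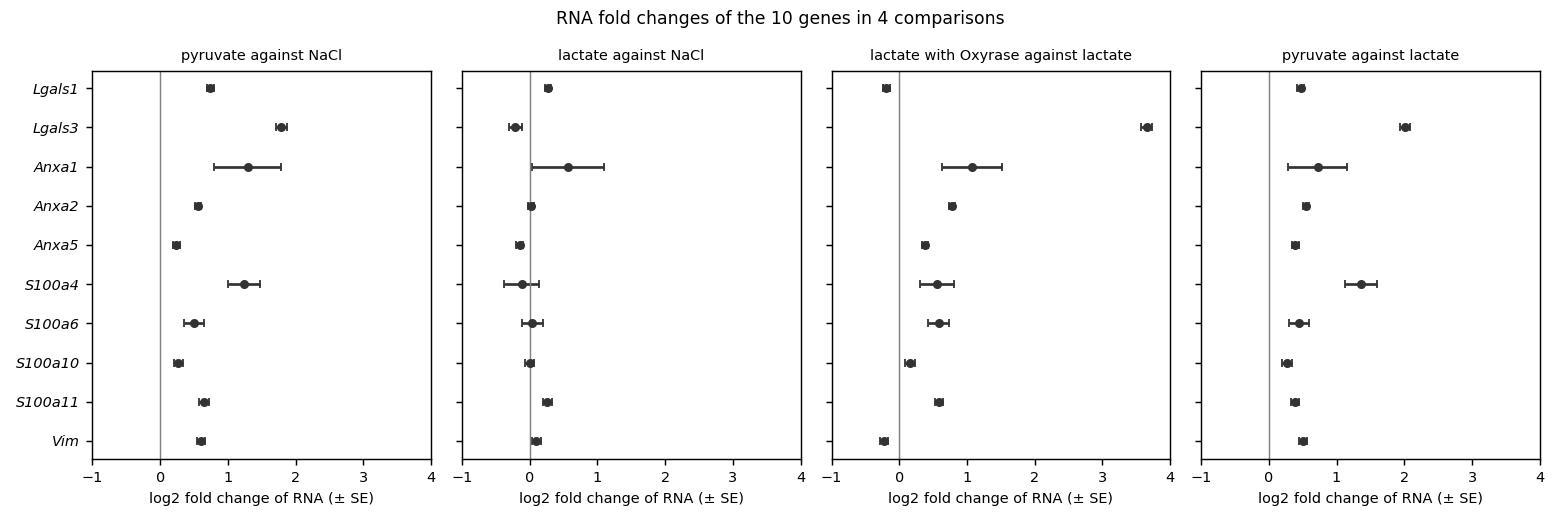
Log2 fold change of RNA with its SE (horizontal axis) for the 10 genes in 4 comparisons. With pyruvate against NaCl all 10 estimates lie between 0.24 and 1.79; with Oxyrase against lactate they run from -0.22 (Vim) to 3.65 (Lgals3).

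Read as a list, 9 of the 10 genes passed the threshold as higher with pyruvate against NaCl, where 9.40% of all tested genes did, and 0 as lower, where 6.28% did, and 9 were higher with pyruvate against lactate, where 13% did. Anxa1 was the exception in both, and in both all 10 had pyruvate libraries above every library of the other group, which held for 17.8% and 20.3% of all genes. With lactate against NaCl 2 passed as higher (Lgals1 and S100a11), where 3.61% of all genes did. With Oxyrase against lactate 5 passed as higher (Lgals3, Anxa2, Anxa5, S100a6 and S100a11) and 2 as lower (Lgals1 and Vim), beside 26.1% and 23.6% of all genes. The median log2 fold change of the list was 0.62, 0.03, 0.57 and 0.49 for pyruvate against NaCl, lactate against NaCl, Oxyrase against lactate and pyruvate against lactate, and that of all genes lay between -0.003 and 0.001. With lactate against NaCl 2 genes lay wholly above and 2 wholly below the NaCl libraries (13.6% and 13.9% of all genes), and with Oxyrase 7 lay above and 2 below the lactate libraries (28.7% and 27.2%). None lay wholly below in the 2 pyruvate comparisons (16% and 19.3% of all genes). Since the list was drawn up from such results, these counts are not evidence about the families. Lactate is the reduced form of pyruvate, and both were given at the same dose and time. The 95% interval of the log2 difference pyruvate against lactate was above 0 for 9 genes and -0.22 to 1.66 for Anxa1. The genes were listed on such differences, so these intervals are a description and no test.

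The order of the groups differed between genes. For Lgals1, S100a4, S100a10, Anxa5 and Vim the highest mean was with pyruvate, and for Lgals3, Anxa1, Anxa2, S100a6 and S100a11 it was with Oxyrase. The step from the second highest to the highest group was larger than the combined SD for Lgals1, Lgals3, Anxa2, S100a4, S100a11 and Vim, although the S100a11 ranges overlapped, and within it for Anxa1, Anxa5, S100a6 and S100a10. NaCl and lactate means were neighbours within the combined SD for Lgals3, Anxa1, Anxa2, S100a4, S100a6, S100a10 and Vim.

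To describe which transcripts had the most similar pattern, 8649 genes whose log2 CPM averaged 3 or more were compared over the 12 RNA libraries, which share 4 group means. The 3 nearest to Lgals3 were Capg, an actin-capping protein (Pearson r of 0.994), the chemokine Ccl9 (0.993) and the cytokine Il3 (0.991). Mean levels of Ccl9 were 6.35, 23.2, 5.12 and 92.7 CPM with NaCl, pyruvate, lactate and Oxyrase, those of Il3 were 6.48, 21.8, 5.79 and 98.5 CPM, and those of Capg were 121, 171, 121 and 230 CPM. The nearest to Anxa2 were Rhoq (0.988), Spp1, which encodes osteopontin (0.986), and the collagen prolyl hydroxylase subunit P4ha1 (0.983). Spp1 stood at 25.6, 97.3, 26.0 and 172 CPM in the same order of groups. The nearest to S100a6 were Gbe1, the glycogen branching enzyme (0.928), Fam20a (0.925) and the chemokine receptor Cxcr6 (0.924). The nearest to Vim were Zfp608 (0.974), Rasa3 (0.962) and the thrombin receptor F2r (0.960), whose levels were 35.3, 46.5, 34.7 and 30.7 CPM.

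Accessibility was then examined in the 40 ATAC-seq peaks that lie within a gene of the list or up to 10 kb beyond its ends. Peak coordinates are those of mm10, and peak counts are given as CPM. Distances are from peak centre to annotated start, and for Lgals1 and S100a10, for which no strand was held, the lower coordinate was taken as the start. S100a4 and S100a6 share 4 of these peaks, each counted once. With pyruvate against NaCl 0 of 40 peaks and 0% of all 75802 peaks were called by edgeR, and DESeq2 also called 0. Of all peaks, 4060 were at an unadjusted p under 0.05, 1 of them among the 40, and the lowest adjusted p of any peak was 0.172. With lactate against NaCl 5 of 40 were called, 1 higher and 4 lower, beside 1.13% and 5.28% of all peaks (6.41% in either direction). With Oxyrase against lactate 15 of 40 were called, 11 higher and 4 lower, beside 15.6% and 12.8%. With pyruvate against lactate 9 of 40 were called, 6 higher and 3 lower, beside 6.84% and 4.78% of all peaks. With the trend of fold change on mean accessibility removed, an alternative chosen after the data were seen, these splits were 3 higher and 4 lower for lactate against NaCl, 15 and 3 for Oxyrase, and 5 and 4 for pyruvate against lactate.

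**Figure D3:**
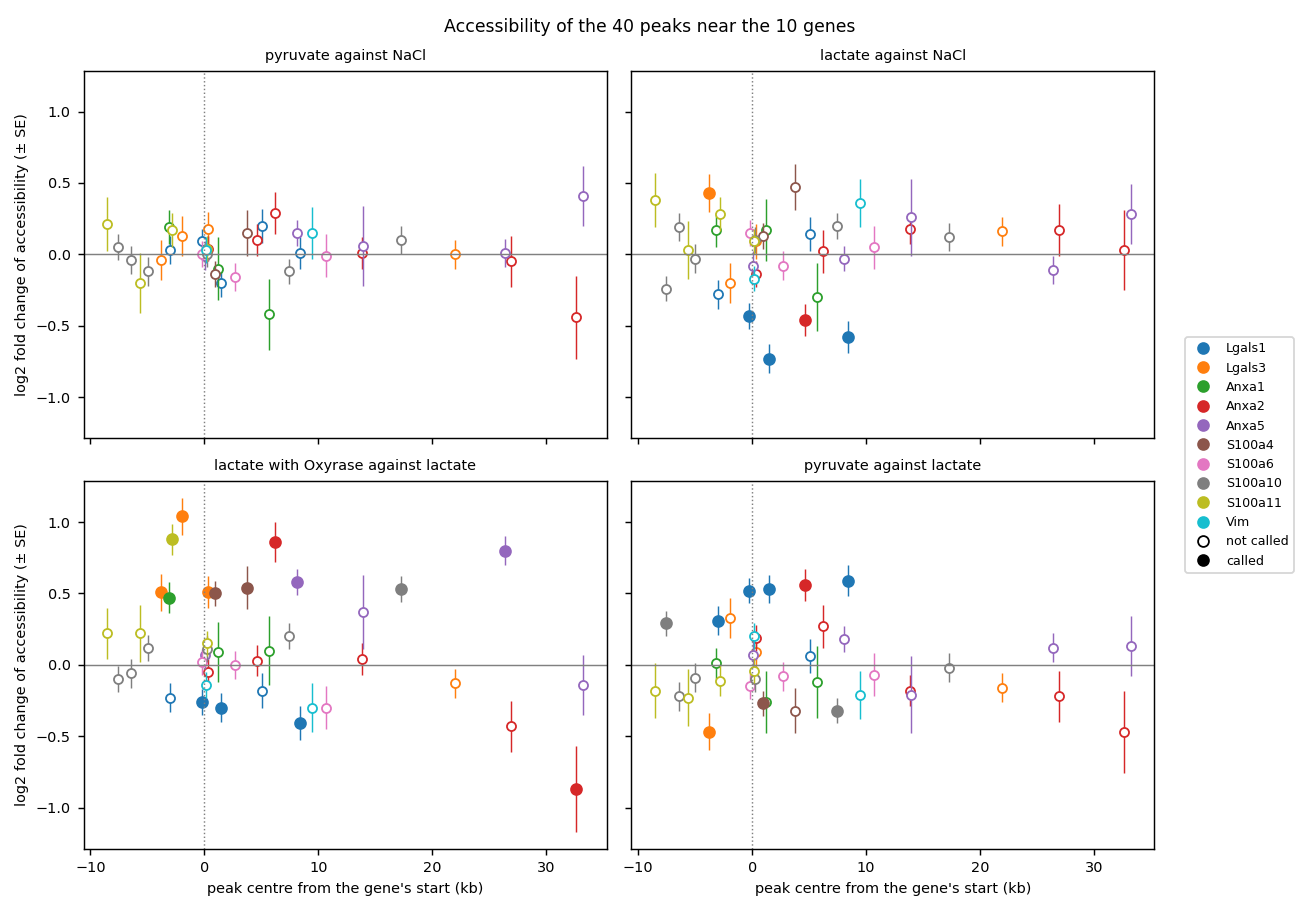
Log2 fold change of accessibility with its SE (vertical axis) against distance of the peak centre from the gene's start (kb) for the 40 peaks, in 4 comparisons. Filled points were called by edgeR; a peak in the windows of both S100a4 and S100a6 is drawn at the nearer start. The called Lgals1 peaks lie below 0 for lactate and for Oxyrase and above 0 for pyruvate against lactate, and the highest point with Oxyrase is the Lgals3 peak at -1.98 kb.

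Of the 5 Lgals1 peaks, 3 fell with lactate against NaCl, and the same 3 fell again with Oxyrase against lactate. The peak over its start (chr15:78926113-78926830) held 36.8, 39.1 and 32.3 CPM with NaCl and 39.1, 40.2 and 36.2 CPM with pyruvate, 2 overlapping ranges. It held 28.9, 25.7 and 25.8 CPM with lactate and 22.3, 23.9 and 21.1 CPM with Oxyrase, so all 6 lactate-treated libraries lay below the other 6. The log2 change at this peak was -0.43 ± 0.09 for lactate against NaCl (edgeR adjusted p = 0.00224), 0.52 ± 0.09 for pyruvate against lactate (0.000216) and -0.26 ± 0.09 for Oxyrase against lactate (0.0312). For pyruvate against NaCl it was 0.09 ± 0.09, with a 95% interval of -0.09 to 0.27.

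A peak inside Lgals1 (chr15:78927963-78928400) fell from 31.9 ± 5.43 CPM (SD, n = 3) with NaCl to 19.1 ± 1.19 with lactate, a log2 change of -0.73 ± 0.10 with an edgeR adjusted p of 0.000126. It was at 27.6 ± 3.28 CPM with pyruvate, 0.53 ± 0.10 above lactate (adjusted p = 0.000566 by edgeR), and at 15.6 ± 0.696 CPM with Oxyrase (-0.30 ± 0.10, adjusted p = 0.0293). A downstream peak in Nol12 (chr15:78934799-78935409) fell by 0.58 ± 0.11 with lactate against NaCl and by a further 0.41 ± 0.12 with Oxyrase (edgeR adjusted p of 0.00104 and 0.00677). That peak was 0.59 ± 0.11 higher with pyruvate than with lactate (0.000558). An upstream peak (chr15:78923455-78923936) was 0.31 ± 0.10 higher with pyruvate than with lactate (edgeR adjusted p = 0.0347). The remaining peak (chr15:78931666-78931911) was not called in any comparison and held 12.5 ± 1.74 CPM with NaCl, 14.3 ± 1.35 with pyruvate, 13.7 ± 1.12 with lactate and 12.1 ± 2.44 with Oxyrase. Its log2 change for lactate against NaCl was 0.14 ± 0.12 (95% interval -0.10 to 0.37). The annotated non-coding gene Gm30368 overlaps this upstream peak and both peaks at the gene. RNA of Lgals1 was higher with lactate than with NaCl while its 3 called peaks in that comparison were lower.

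Some of these calls rest on single libraries. NaCl library 3 was the lowest of its group at the Nol12 peak (18.8 CPM against 30.0 and 31.9), near the lactate values of 17.8, 17.5 and 18.3 CPM. Without NaCl library 2 the lactate against NaCl change was -0.37 at the start peak and -0.44 at the Nol12 peak, with edgeR adjusted p of 0.0538 and 0.0518. The Oxyrase change at the start peak had an adjusted p of 0.123 without lactate library 1, 0.073 without Oxyrase library 1 and 0.128 without Oxyrase library 3 in edgeR. At the peak inside Lgals1 leaving out lactate library 1 or 3 or Oxyrase library 1 or 3 gave 0.0706, 0.0962, 0.0675 and 0.0951. With the trend on mean accessibility removed, the Oxyrase changes at these 2 peaks were -0.18 and -0.25, with adjusted p of 0.0732 and 0.0554 by edgeR. The upstream peak lost its call without lactate library 2 or 3 or pyruvate library 1 or 2 (edgeR adjusted p of 0.0724, 0.223, 0.124 and 0.107).

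Lgals3 gained accessibility with Oxyrase against lactate at 3 of its 4 peaks, beside 15.6% of all peaks. The peak centred 1.98 kb before the start (chr14:47371702-47372055) held 6.58, 4.33 and 5.62 CPM with lactate and 12.9, 10.9 and 10.4 CPM with Oxyrase. That is a log2 change of 1.04 ± 0.13, or 2.06-fold, with an edgeR adjusted p of 7.35e-08, and it was the highest of the 40 peaks in this comparison. With NaCl it held 6.99, 6.25 and 5.91 CPM and with pyruvate 7.59, 6.76 and 6.43 CPM, which overlap (log2 change 0.13 ± 0.14, 95% interval -0.15 to 0.41).

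The peak over the Lgals3 start (chr14:47373725-47374650), which covers part of the promoter printed above, rose from 11.8 ± 2.06 CPM (SD, n = 3) with lactate to 16.7 ± 1.87 CPM with Oxyrase. The log2 change was 0.51 ± 0.11 with an edgeR adjusted p of 0.00056. With pyruvate it was at 12.6 ± 0.669 CPM and with NaCl at 11.1 ± 1.03 CPM, a change of 0.18 ± 0.12 that was not called (95% interval -0.05 to 0.41), beside a 3.46-fold difference in RNA. The peak 3.83 kb before the start (chr14:47369838-47370215) was at 6.64 ± 1.07 CPM with NaCl, 6.47 ± 0.734 with pyruvate, 9.0 ± 0.792 with lactate and 12.8 ± 1.88 with Oxyrase. It rose by 0.51 ± 0.13 on the log2 scale with Oxyrase against lactate (edgeR adjusted p = 0.00156) and by 0.43 ± 0.13 with lactate against NaCl (0.0367), and it was 0.47 ± 0.13 lower, a log2 change of -0.47, with pyruvate than with lactate (0.0136). The lactate against NaCl call of this peak was lost in 5 of the 6 fits that left out a library, all but that without NaCl library 3, with edgeR adjusted p of 0.0525 (lactate 2), 0.0638 (lactate 1), 0.221 (lactate 3), 0.225 (NaCl 1) and 0.24 (NaCl 2), and with the trend on mean accessibility removed (0.0684). The pyruvate against lactate call was lost without lactate library 3 (0.103) or pyruvate library 2 (0.106 by edgeR).

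**Figure D4:**
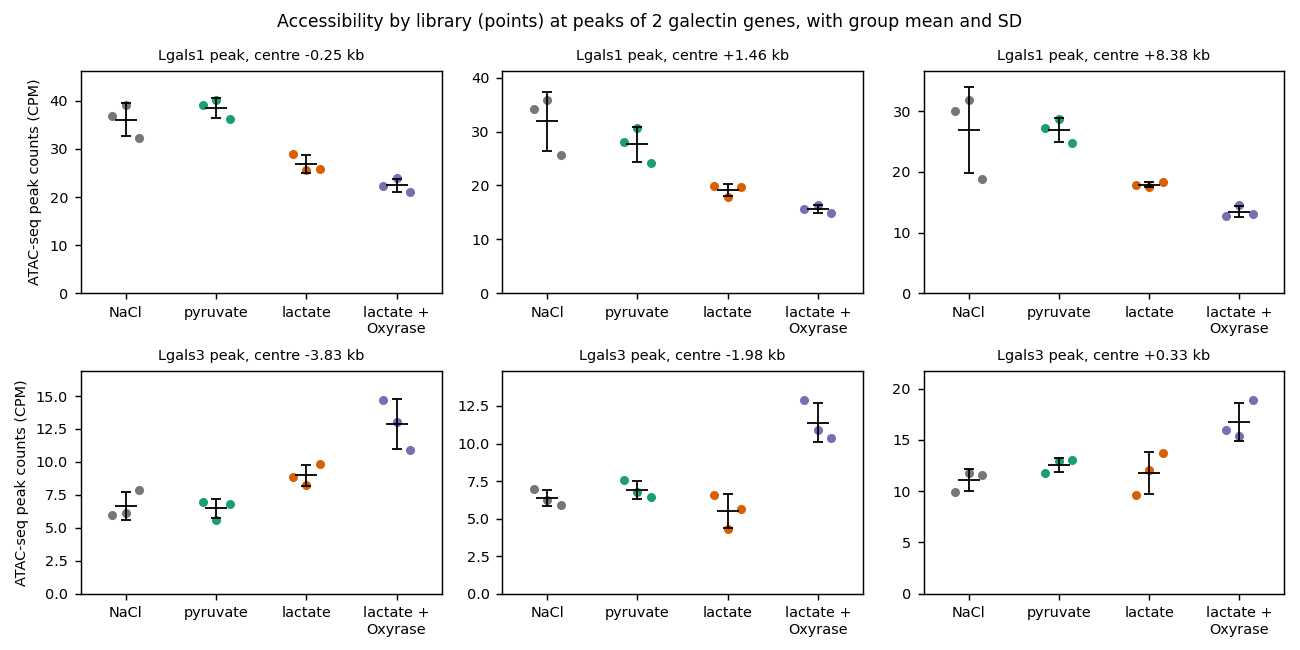
ATAC-seq counts (CPM, linear axis from 0) by library at 3 peaks of Lgals1 (upper row) and 3 of Lgals3 (lower row); points are libraries, black marks the group mean and SD of 3 libraries. Lgals1 peaks are lowest with lactate and Oxyrase, and the Lgals3 peak at -1.98 kb holds 10.4 to 12.9 CPM with Oxyrase and at most 7.59 CPM in the other 9 libraries.

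Of the 15 peaks called with Oxyrase, 12 lay away from starts, as did 31 of the 40 peaks in all. The peak 2.80 kb before S100a11 (chr3:93517429-93517973) rose from 9.35, 8.16 and 9.17 CPM with lactate to 15.5, 17.5 and 16 CPM with Oxyrase, a log2 change of 0.88 ± 0.11 (edgeR adjusted p = 3.16e-08). In Anxa2 a peak 6.18 kb after the start (chr9:69459744-69459991) rose from 4.52, 4.86 and 4.84 CPM to 9.34, 7.54 and 8.95 CPM (0.86 ± 0.14, edgeR adjusted p = 9.63e-06). Both sets of 3 Oxyrase libraries lay above every lactate library.

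Anxa5 had called peaks at 26.4 kb and 8.09 kb into the gene. The first (chr3:36449194-36449777) rose from 13.5, 11.8 and 13.9 CPM to 22.7, 24.7 and 21.0 CPM, a change of 0.80 ± 0.10 (edgeR adjusted p = 1.86e-08). The second (chr3:36467447-36468154) rose from 16.3 ± 0.212 CPM (SD, n = 3) to 24.4 ± 0.525 CPM, or 0.58 ± 0.09 (4.04e-06 by edgeR). A peak downstream of S100a10 (chr3:93571983-93572777) rose from 63.3 ± 5.60 to 91.6 ± 10.5 CPM (0.53 ± 0.09, edgeR adjusted p = 2.89e-05). A peak 3.15 kb before Anxa1 (chr19:20393572-20394070) rose from 10.2 ± 1.10 to 14.2 ± 0.295 CPM (0.47 ± 0.11, edgeR adjusted p = 0.00128), beside RNA of that gene near the limit of detection.

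At S100a4 the peak inside the gene, centred 0.97 kb after its start (chr3:90604076-90605410), rose from 28.8, 27.7 and 27.0 CPM with lactate to 39.3, 39.5 and 39.1 CPM with Oxyrase (0.50 ± 0.09, edgeR adjusted p = 4.23e-05). With NaCl it held 25.9, 21.8 and 28.4 CPM and with pyruvate 24.9, 21.0 and 23.0 CPM, 2 overlapping ranges. For pyruvate against NaCl the log2 change was -0.14 ± 0.09 (edgeR adjusted p = 0.996), while S100a4 RNA was highest with pyruvate. The peak was lower with pyruvate than with lactate by a log2 change of -0.27 ± 0.09 (edgeR adjusted p = 0.0459). That call was lost in 5 of 6 fits without a library, in all but that without pyruvate library 1. It was also lost with DESeq2 (0.0641) or relative log expression scaling (0.0722). A peak in the neighbouring S100a5 (chr3:90607462-90607637) rose by 0.54 ± 0.15 with Oxyrase (edgeR adjusted p = 0.00533), while S100a5 RNA was at 0 in all libraries.

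Elsewhere calls were in the other direction or in other comparisons. The Anxa2 peak 4.59 kb after the start (chr9:69457983-69458565) held 40.0, 36.6 and 31.5 CPM with NaCl, 41.2, 37.5 and 36.7 CPM with pyruvate and 33.3, 22.6 and 22.3 CPM with lactate. It was called lower for lactate against NaCl at -0.46 ± 0.11 (edgeR adjusted p = 0.00537), although lactate library 1 overlapped NaCl, and the adjusted p was 0.0927, 0.0501, 0.0812 and 0.114 without NaCl library 1, NaCl library 2, lactate library 2 and lactate library 3. It was 0.56 ± 0.11 higher with pyruvate than with lactate (0.000572 by edgeR). A small Anxa2 peak (chr9:69486273-69486392) fell by 0.87 ± 0.30 with Oxyrase, from 1.58 ± 0.168 to 0.866 ± 0.211 CPM (edgeR adjusted p = 0.0229), and lost the call without lactate library 1 (0.0774), lactate library 3 (0.0516) or Oxyrase library 2 (0.117). At S100a10 a peak 7.54 kb upstream (chr3:93547191-93547960) was 0.29 ± 0.09 higher with pyruvate than with lactate (edgeR adjusted p = 0.0342) and lost the call in 5 of 6 fits without a library, in all but that without lactate library 1, and with the trend removed (0.06). A peak inside S100a10 (chr3:93562123-93562962) differed by -0.32 ± 0.09 in the same comparison (edgeR adjusted p = 0.0177) and lost the call without lactate library 3 (0.182), pyruvate library 2 (0.0721) or pyruvate library 3 (0.105).

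The 9 peaks nearest to the starts belong to each gene except Anxa1, which had none within 1 kb. Of these, 3 were called with Oxyrase against lactate (Lgals1 lower, Lgals3 and S100a4 higher), 1 with lactate against NaCl (Lgals1 lower) and 2 with pyruvate against lactate (Lgals1 higher, S100a4 lower). Over all peaks within 1 kb of a gene end, 6.76% were called higher and 19.7% lower with Oxyrase, 0.597% and 14% with lactate against NaCl, and 16.8% and 2.61% with pyruvate against lactate. The start peak of Vim (chr2:13573260-13575726), at 106 ± 6.78 CPM with NaCl and 108 ± 7.65 CPM with pyruvate (SD, n = 3), changed by 0.03 ± 0.09 (95% interval -0.15 to 0.21), beside a 1.52-fold difference in RNA. With pyruvate against lactate it changed by 0.20 ± 0.09 (edgeR adjusted p = 0.145), and without lactate library 1 it was called at 0.28 (0.0408). At the start peak of Anxa2 (chr9:69453368-69454582) the change was 0.04 ± 0.09 for pyruvate against NaCl and -0.05 ± 0.09 for Oxyrase against lactate, with 95% intervals of -0.13 to 0.22 and -0.22 to 0.12. At that of S100a11 (chr3:93520188-93521176) it was 0.04 ± 0.09 and 0.15 ± 0.09 (-0.14 to 0.23 and -0.03 to 0.34). At that of S100a10 (chr3:93554525-93556219) it was -0.00 ± 0.09 and 0.11 ± 0.09, at that of S100a6 (chr3:90612228-90613136) 0.00 ± 0.09 and 0.02 ± 0.09, and at that of Anxa5 (chr3:36475254-36476395) -0.01 ± 0.10 and 0.07 ± 0.10. With the trend on mean accessibility removed, the Oxyrase changes at the start peaks of S100a10, S100a11 and Anxa5 were 0.22, 0.24 and 0.18 and were called (edgeR adjusted p of 0.0166, 0.0227 and 0.00973). That of S100a10 was then also called for lactate against NaCl (0.24, adjusted p = 0.0252 by edgeR) and pyruvate against lactate (-0.23, 0.0219).

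Other genes of the 4 families and 15 partner proteins came from lists written by family or known binding partner, with earlier results of these data known. The intermediate filament list holds 2 keratins and not the whole keratin family. Of 59 such genes 34 were measured well enough to test. With pyruvate against NaCl 9 rose and 3 fell, with lactate against NaCl 4 rose and 1 fell, with Oxyrase against lactate 11 rose and 11 fell, and with pyruvate against lactate 8 rose and 6 fell. In percent of the 34 these are 35.3%, 14.7%, 64.7% and 41.2%, beside 15.7%, 7.73%, 49.7% and 24.0% of all tested genes. Their median log2 fold change was 0.09, 0.08, 0.05 and 0.07. The pyruvate against NaCl count was 7 without NaCl library 1, 5 without NaCl library 2 and 6 without pyruvate library 2, and the lactate against NaCl count was 2 without NaCl library 1 and 3 without NaCl library 2 or any 1 of the 3 lactate libraries.

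Among 6 tested annexins outside the list, 4 rose and 1 fell with Oxyrase against lactate, beside 26.1% and 23.6% of all tested genes. Anxa3 rose most, from 1.70 ± 0.278 CPM with lactate to 13.9 ± 1.95 CPM with Oxyrase (SD, n = 3), a log2 change of 3.02 ± 0.19 with an edgeR adjusted p of 9.51e-10. With pyruvate it stood at 1.84 ± 0.166 CPM and with NaCl at 2.2 ± 0.805 CPM (-0.25 ± 0.22, edgeR adjusted p = 0.496). Anxa4 rose by 0.42 ± 0.07 with Oxyrase and by 0.26 ± 0.08 with pyruvate against NaCl (edgeR adjusted p of 0.000133 and 0.0249), and Anxa7 by 0.15 ± 0.04 and 0.20 ± 0.04 (0.0031 and 0.00162). Anxa6, an annexin of T cell membranes, went the other way. It fell by 0.53 ± 0.04 with Oxyrase, from 351 ± 8.09 to 242 ± 9.05 CPM (edgeR adjusted p = 2e-09), fell by 0.18 ± 0.04 with pyruvate against NaCl (0.00249) and rose by 0.17 ± 0.04 with lactate against NaCl (0.00903). The Anxa4 change with pyruvate was not called without NaCl library 1 (0.0968), NaCl library 2 (0.0836) or pyruvate library 2 (0.146 by edgeR).

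Among 5 tested galectins outside the list, 1 rose and 2 fell with Oxyrase against lactate, beside 26.1% and 23.6% of all tested genes. Lgals9, the tandem-repeat galectin-9, fell with Oxyrase from 47.6 ± 3.83 to 29.5 ± 0.519 CPM (-0.69 ± 0.06, edgeR adjusted p = 9.35e-08). The galectin-related Lgalsl fell by 0.33 ± 0.09 (edgeR adjusted p = 0.00376). Lgals7, a low-level galectin named after its values were seen, rose from 0.918 ± 0.115 to 2.26 ± 0.109 CPM (1.29 ± 0.21, edgeR adjusted p = 8.17e-05). Lgals9 was also lower with pyruvate than with lactate (-0.24 ± 0.06, edgeR adjusted p = 0.00841, or 0.0575 without pyruvate library 2) and than with NaCl (-0.21 ± 0.06, 0.0252). Lgals8 rose by 0.27 ± 0.07 with pyruvate against NaCl (edgeR adjusted p = 0.0189), and Lgals4 was lower with pyruvate than with lactate (-0.51 ± 0.14, 0.0139). The 2 changes against NaCl had edgeR adjusted p of 0.0505 to 0.0861 for Lgals8 without NaCl library 1, 2 or 3 or pyruvate library 3, and of 0.0529 to 0.144 for Lgals9 without NaCl library 2 or 3 or pyruvate library 2 or 3. Without lactate library 3 that of Lgals4 was 0.0767. Lgals2 was at 0 counts.

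Of 12 S100 genes outside the list, 10 were too low to test, and the 2 tested were S100a1 and S100a13. The list also held S100pbp, which encodes an S100P-binding protein and is no S100 family gene, and which was tested and not called in any comparison. The neutrophil genes S100a8 and S100a9 held 5 counts each over all 12 libraries. S100a1 rose by 0.71 ± 0.21 with pyruvate against NaCl (edgeR adjusted p = 0.0325, but 0.143 without NaCl library 2, 0.0749 without NaCl library 3, 0.0635 without pyruvate library 1 and 0.142 without pyruvate library 2), and S100a13 was 0.35 ± 0.07 higher with pyruvate than with lactate (0.00255). Of 7 tested intermediate filament genes other than Vim, 1 rose and 3 fell with Oxyrase against lactate (26.1% and 23.6% of all tested genes). The nuclear lamins Lmnb1 and Lmnb2 fell with Oxyrase by 0.35 ± 0.04 and 0.29 ± 0.05 (edgeR adjusted p of 1.77e-06 and 0.000144). The neurofilament gene Nefh fell with Oxyrase from 135 ± 6.21 to 78.8 ± 3.97 CPM (-0.78 ± 0.05, edgeR adjusted p = 1.33e-09). The nestin gene Nes, named after its values were seen, rose from 1.04 ± 0.388 to 1.73 ± 0.424 CPM (0.75 ± 0.30, edgeR adjusted p = 0.048, but 0.0902 and 0.213 without lactate library 2 or 3, 0.136 and 0.143 without Oxyrase library 1 or 3, and 0.0821 with the replicate number as a block). Lmnb2 fell by 0.33 ± 0.05 with pyruvate against NaCl and was 0.51 ± 0.05 lower, a log2 change of -0.51, with pyruvate than with lactate (edgeR adjusted p of 0.000378 and 2.02e-06). The internexin gene Ina was 1.35 ± 0.19 higher with pyruvate than with lactate (edgeR adjusted p = 8.47e-05) and fell by 0.85 ± 0.20 with lactate against NaCl (0.0169, or 0.0797 without NaCl library 1 and 0.0527 without lactate library 1). With lactate against NaCl Nefh rose by 0.25 ± 0.05 (edgeR adjusted p = 0.00691) and Lmnb2 by 0.18 ± 0.05 (0.0384), the latter not called in any of the 6 fits without a library.

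Of 13 tested partners, 5 rose and 0 fell with pyruvate against NaCl, beside 9.40% and 6.28% of all tested genes. With Oxyrase against lactate 5 rose and 5 fell, beside 26.1% and 23.6%. Mgat5, the glycosyltransferase that builds the branched N-glycans galectins bind, rose from 64.7 ± 3.42 CPM with NaCl to 95.5 ± 4.51 CPM with pyruvate (0.56 ± 0.05, edgeR adjusted p = 1.02e-06). It was 0.65 ± 0.05 higher with pyruvate than with lactate (9.98e-08 by edgeR) and rose by 0.34 ± 0.05 with Oxyrase (2.13e-05). Ahnak, the scaffold bound by the annexin A2 and S100A10 complex, rose by 0.22 ± 0.05 with pyruvate against NaCl and by 0.17 ± 0.05 with Oxyrase (edgeR adjusted p of 0.0127 and 0.0156). The first was at 0.0525 without NaCl library 1 and 0.0662 without pyruvate library 2 in edgeR, and the second at 0.0568 to 0.093 without lactate library 2 or 3 or Oxyrase library 2 or 3. Spn, a heavily glycosylated T cell surface protein that galectin-1 binds, was 0.16 ± 0.03 higher with pyruvate than with lactate (edgeR adjusted p = 0.00283). Cacybp, which binds S100A6, was lower with pyruvate than with lactate (-0.20 ± 0.05, edgeR adjusted p = 0.00376). With Oxyrase the calpains Capn1 and Capn2 and the galectin-3 binding protein Lgals3bp fell by 0.45 ± 0.05, 0.40 ± 0.07 and 0.45 ± 0.10 (edgeR adjusted p of 4.08e-07, 8.71e-05 and 0.00174). For pyruvate against NaCl Lgals3bp was not called in the main fit. It was called lower there without the filter (-0.27, edgeR adjusted p = 0.00124) and without pyruvate library 1 (-0.43, 0.00159). DESeq2 also called Lgals3bp lower in that comparison (-0.27, adjusted p = 0.0449) and Spn higher (0.09, 0.0389). Capn2 rose with pyruvate against NaCl (0.20 ± 0.07) and with lactate against NaCl (0.24 ± 0.07), with edgeR adjusted p of 0.0454 and 0.0343, and each call was lost in 5 of the 6 fits without a library, in all but that without NaCl library 3.

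**Figure D5:**
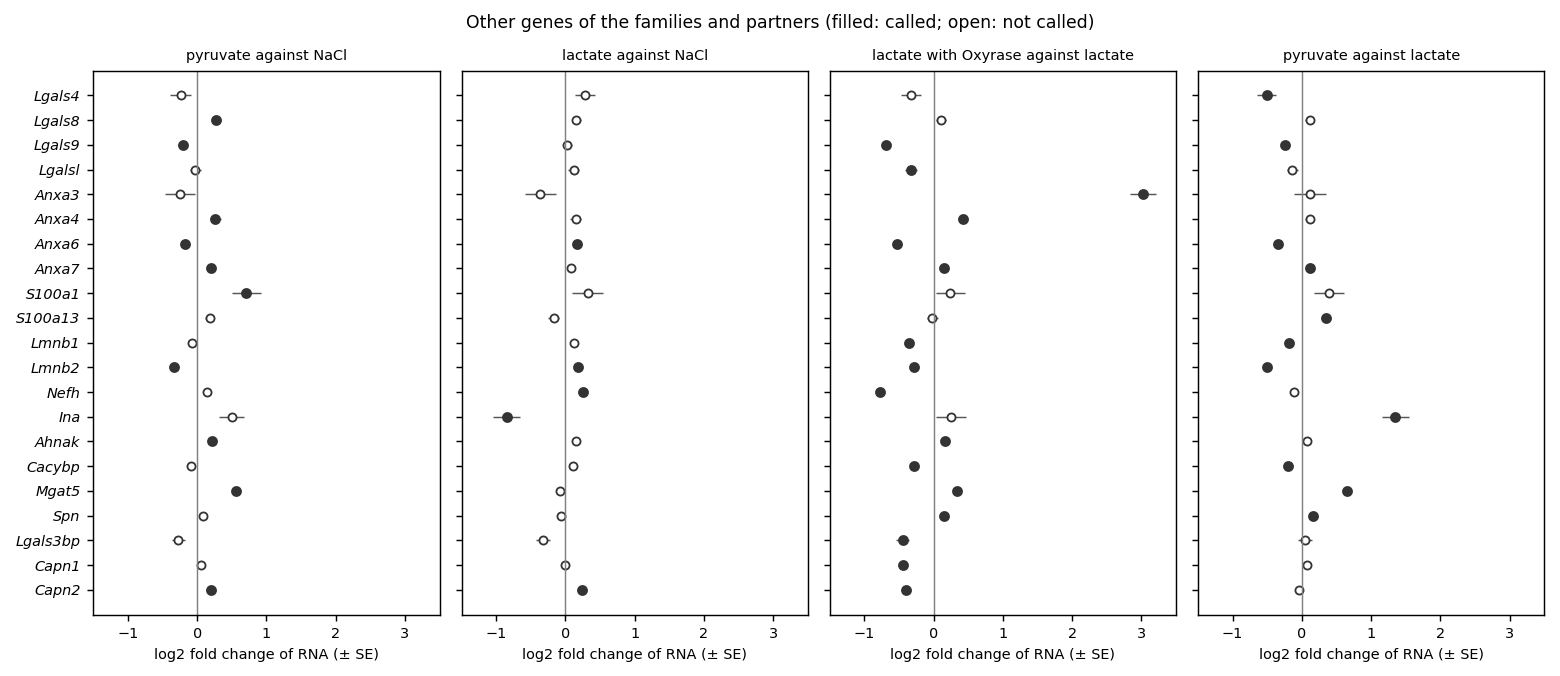
Log2 fold change of RNA with its SE (horizontal axis) in 4 comparisons for the 21 genes of the same families and partners named in the text; filled points were called by edgeR. Anxa3 stands apart with Oxyrase at 3.02, and Anxa6, Lgals9, Nefh and the calpains lie below 0 there.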

How the data were processed

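Gene levels were deposited as estimated counts, which the authors made with RSEM 1.2.12 and Bowtie2 2.2.0 per the submitters' processing notes, in a matrix named as adjusted. What was adjusted is not given in the sources used here, and an adjustment could make the spread within groups too small. The deposited ATAC-seq values are read counts in mm10 peaks, with duplicates and mitochondrial reads removed per the file headers, and further tools in the notes are MACS2, BWA, bedtools, Picard, Trimmomatic and edgeR 3.20.9. Peak starts were read as counted from 0 and are printed counted from 1, an assumption. Of the non-zero estimated counts 99.24% were whole.

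The members and gene lists were chosen with earlier results of these data known. Named genes were the 10 members and, from each family or partner list, up to 3 called genes per comparison with the largest log2 fold change and a mean log2 CPM of at least 1, plus the nearest 3 genes by Pearson r to 4 members. Named peaks were that nearest to each start and the called peak of smallest p, and the other called peaks were added after their values were seen.

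Estimated counts were rounded, low counts removed with filterByExpr, and libraries scaled by TMM. For each assay 1 quasi-likelihood model with 8 residual degrees of freedom was fitted to all 12 libraries in edgeR 4.0.16, with p-values adjusted by Benjamini and Hochberg over all features and 0.05 as threshold. The SE was taken as the fold change over the root of its F statistic. The spread between libraries, given as edgeR's coefficient of biological variation, came to 5.05% for RNA and 9.70% for ATAC-seq. Despite the name of this coefficient, the spread may be technical. Symbols came from the reference table (55141 of 55401 identifiers matched) and gene positions from RefSeq GRCm38.p6. Whether the RNA counting used strand is not given in the sources used here, so reads of overlapping antisense genes could not be told apart. Replicate libraries differed by more than sampling noise, with a chi-square per feature of at least 2.29. The pipeline was tested on simulated data. Alternatives were RLE scaling, no filter, DESeq2 1.42.0, replicate number as a block, each library left out, a 1 kb window, and a loess trend (span 0.3). The software was R 4.3.3 and Python 3.11.15 (pandas 2.3.3, numpy 2.4.6, matplotlib 3.10.9, scipy 1.17.1).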

Additional observations from a re-analysis of the deposited data

How the results depend on the processing

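With 3 libraries per group, changes near the threshold gained or lost their call with single libraries, and no result changed direction. Leaving out each library in turn, the members called numbered 7 to 9 (9 in the full fit) for pyruvate against NaCl, 1 to 2 (2) for lactate against NaCl, 7 to 10 (7) for Oxyrase against lactate and 8 to 9 (9) for pyruvate against lactate. Other family genes and partners called numbered 5 to 11 (12), 2 to 4 (5), 18 to 21 (22) and 12 to 14 (14) in the same order. Member peaks called numbered 0 to 0 (0), 1 to 7 (5), 12 to 15 (15) and 4 to 10 (9). The lactate against NaCl member count was 1 without NaCl library 2, lactate library 2 or lactate library 3. The lactate against NaCl peak count was 3 without NaCl library 1, lactate library 2 or lactate library 3 and 1 without NaCl library 2, and the pyruvate against lactate peak count was 4 without lactate library 3 or pyruvate library 2. Within a window of 1 kb, which holds fewer peaks, 3 peaks were called for lactate against NaCl, 8 for Oxyrase against lactate and 5 for pyruvate against lactate. Over all peaks 6.41%, 28.4% and 11.6% were called in these comparisons. The number of peaks in the smaller window is not given here, so its counts cannot be read as shares. Without a filter on low counts Lgals3 passed the threshold as lower for lactate against NaCl (-0.21) and S100a10 as higher for Oxyrase against lactate (0.15).

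Deviations of same-numbered RNA libraries from their group means correlated negatively in all 18 pairs, at -0.21 to -0.08, with a mean of 0.07 for other numbers. This is no sign that the libraries were independent, and whether the adjustment of the matrix made it was not tested. In ATAC-seq the correlations were -0.15 to 0.17, with a mean of -0.03 for other numbers, and 6 of 18 were over the 0.1 set for pairing. Best correlation with the own number was found for 0 of 12 RNA and 8 of 12 ATAC-seq libraries. The main fits left the replicate number out. With the replicate number as a block, members called numbered 8, 2, 7 and 8, other family genes 8, 3, 21 and 13, and member peaks 0, 7, 15 and 9 in the same order of comparisons. The cause of the change from 5 to 3 family genes for lactate against NaCl was not tested.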

Other observations

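Peaks in the windows of 4 genes outside the list were read after their RNA values had been seen. Of 4 peaks at Anxa3, whose RNA rose with Oxyrase, 1 rose and 1 fell in that comparison (15.6% and 12.8% of all peaks). A peak within the gene (chr5:96793276-96794626) rose from 14.2 ± 1.60 CPM with lactate to 20.5 ± 3.55 CPM with Oxyrase (SD, 3 libraries each), a log2 change of 0.53 ± 0.11 with an edgeR adjusted p of 0.000192. Another (chr5:96824692-96825436) fell from 14.4 ± 1.97 to 10.0 ± 0.568 CPM (-0.53 ± 0.11, edgeR adjusted p = 0.000204). Neither of 2 peaks at Lgals7, whose RNA also rose with Oxyrase, was called in any comparison. The peak inside the gene (chr7:28865663-28866549) held 32.9 ± 1.73 CPM with lactate and 29.0 ± 1.79 CPM with Oxyrase (-0.18 ± 0.09, edgeR adjusted p = 0.119).

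Of 10 peaks at Anxa6, whose RNA fell with Oxyrase, 2 fell with Oxyrase against lactate (12.8% of all peaks) and 1 fell with lactate against NaCl (5.28%). With pyruvate against lactate 1 was higher and 1 lower (6.84% and 4.78% of all peaks). A peak within the gene (chr11:55031192-55031875) fell from 21.3 ± 1.11 to 14.5 ± 1.2 CPM with Oxyrase (-0.55 ± 0.10, edgeR adjusted p = 2.78e-05). It was at 16.5 ± 2.15 CPM with pyruvate (-0.36 ± 0.10 against lactate, edgeR adjusted p = 0.0108, or 0.0694 without lactate library 3 and 0.124 without pyruvate library 2). Another within the gene (chr11:54998288-54999086) fell by 0.30 ± 0.11 with Oxyrase (edgeR adjusted p = 0.0414, or 0.0781 to 0.183 without lactate library 2 or 3 or Oxyrase library 2 or 3). A peak outside the gene (chr11:55039583-55039945) fell from 10.7 ± 1.48 CPM with NaCl to 8.08 ± 0.838 CPM with lactate, where the RNA of Anxa6 rose (-0.40 ± 0.12, edgeR adjusted p = 0.0336, or 0.121 to 0.324 without NaCl library 1 or 2 or lactate library 2 or 3). It was at 11.7 ± 0.131 CPM with pyruvate, 0.54 ± 0.12 above lactate (edgeR adjusted p = 0.00192).

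Of 6 peaks at Lgals9, whose RNA also fell with Oxyrase, 2 fell with Oxyrase, beside 12.8% of all peaks. The peak within the gene (chr11:78983747-78984207) fell from 4.71 ± 0.524 to 3.37 ± 0.591 CPM (-0.48 ± 0.18, edgeR adjusted p = 0.0406, or 0.0653 to 0.203 without lactate library 2 or 3 or Oxyrase library 1 or 2). The peak outside it (chr11:78956456-78956640) fell from 1.93 ± 0.233 to 1.2 ± 0.209 CPM (-0.68 ± 0.25, edgeR adjusted p = 0.0409, or 0.0501 to 0.154 without any library of the pair except Oxyrase library 1).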
